A study of Mus musculus with 9 samples.

Results

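The genes described here are the NRF2, glutathione and thioredoxin antioxidant genes, 38 of the 55471 genes listed in the expression table. They were chosen by name from their known roles, with earlier results of these data known. NRF2, encoded by Nfe2l2, is a transcription factor that KEAP1 marks for degradation until oxidants or electrophiles modify KEAP1; NRF2 then accumulates and binds antioxidant response elements near its target genes. Glutathione and thioredoxin carry electrons from NADPH to the enzymes that remove peroxides, and peroxiredoxins, glutathione peroxidases and catalase do that removal. Male germ cells have proteins of their own in these systems, the spermatid thioredoxins encoded by Txndc2 and Txndc8 and the thioredoxin-glutathione reductase encoded by Txnrd3. They also use Gpx4, a selenoenzyme of all cells that reduces lipid hydroperoxides and becomes a structural protein of the sperm midpiece.

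Poly-A RNA was sequenced from germ cells labelled as pachytene and diplotene spermatocytes, sorted from digested testes of C57Bl transgenic mice that carry tdTomato under a promoter specific to germ cells, then cultured. The 9 libraries formed 3 groups of 3, lettered A to C: untreated cells, cells given 24 mM oxamate for 48 h, and cells given 24 mM oxamate with 0.3 mM octyl-L2HG for 48 h. Oxamate is a pyruvate analog that inhibits lactate dehydrogenase, and octyl-L2HG is an ester of L-2-hydroxyglutarate that enters cells; lactate dehydrogenase can make this metabolite, which inhibits 2-oxoglutarate-dependent dioxygenases. All groups share the strain and the transgene, no group received octyl-L2HG without oxamate, and the labels give no culture time for the untreated cells and no ages or numbers of mice. The labels do not tie the 3 libraries of a group to separate mice or cultures, so p-values here cover library-to-library spread only, part or all of which may be technical.

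Library totals ran from 24849620 to 46671048 counts, and 18234 genes had enough counts to be tested, among them 28 of the 38 antioxidant genes. Levels are given as CPM (counts scaled to the size of the library), after scaling for library composition, and changes as log2 differences with their standard error (SE) from limma-voom, with p-values adjusted by Benjamini-Hochberg over all tested genes and a threshold of 0.05. The 10 spermatocyte markers summed to between 4389 and 5356 CPM in every library, and Sertoli cell markers to at most 0.869 CPM. Markers of spermatids were present too. In untreated cells the 10 round spermatid markers summed to between 677 and 777 CPM and the 12 elongating spermatid markers to between 1209.8 and 1407 CPM. The octyl-L2HG library C stood apart from A and B of its group, at 49.6 on the first principal component against 100 and 103, and results that it or another library moves are given with and without it.

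Per kilobase of transcript, the antioxidant genes of these cells spanned a wide range. In untreated cells Gpx4 stood highest, at 391 ± 10.8 CPM per kilobase (SD, n = 3). Txnrd3 came next at 303 ± 24.5, and Me1, the cytosolic malic enzyme that makes NADPH, followed at 104 ± 1.2. The untreated libraries of these 3 genes did not overlap with one another, though 61.7% of the Gpx4 transcript and 32.8% of that of Me1 are shared with other genes, so their counts are uncertain. Below them came Prdx5 at 59.0 ± 1.54 and Txndc2 at 49.8 ± 0.494, also without overlap. The next neighbours, Prdx6 at 43.3 ± 2.11 and the ferritin heavy chain gene Fth1 at 38.4 ± 2.03, were followed by Txn2, which encodes mitochondrial thioredoxin, at 32.6 ± 0.481, and by Txndc8 at 31.0 ± 5.20, which overlapped Txn2.

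**Figure D1:**
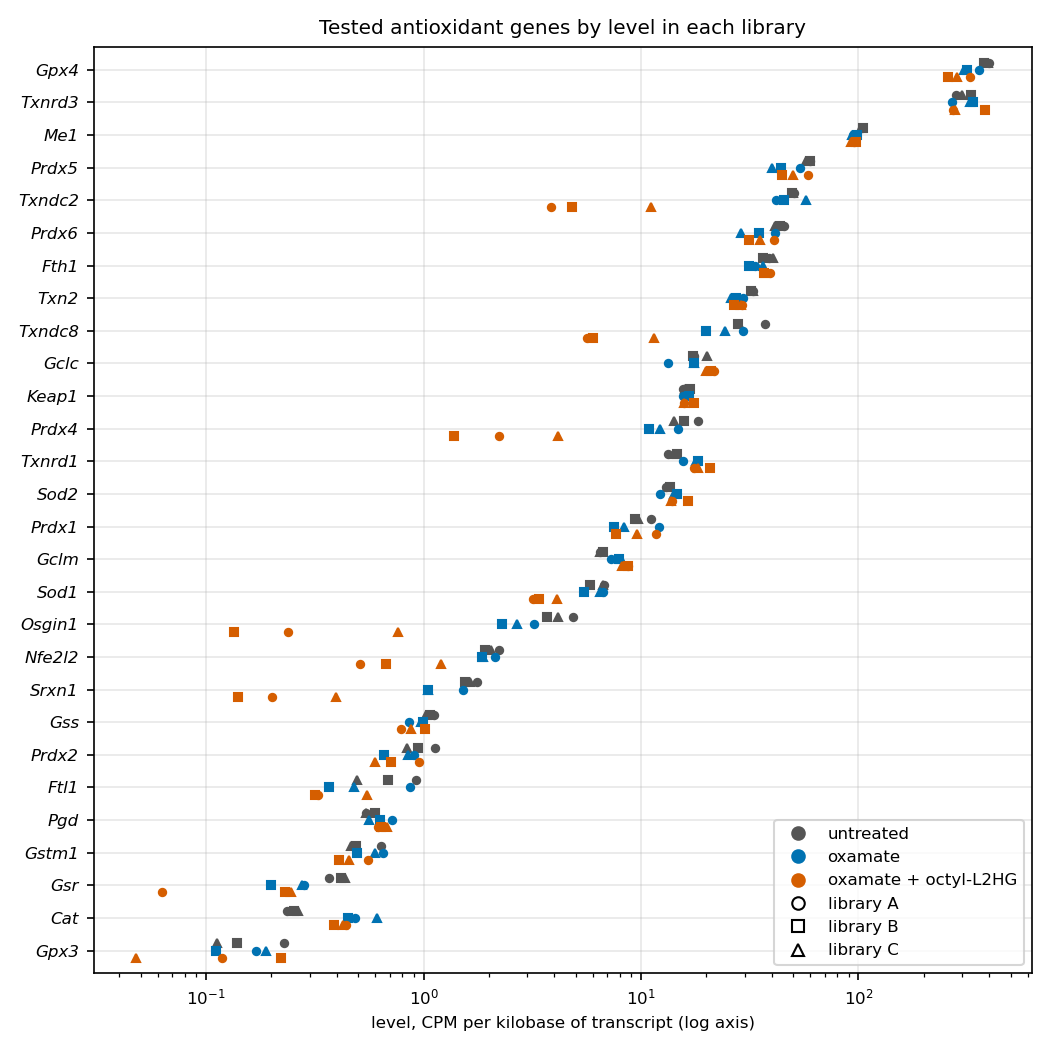
Level of the 28 tested antioxidant genes in CPM per kilobase of transcript (horizontal, log axis), 1 point per library, coloured by group with a symbol per letter, genes ordered by their untreated mean. Gpx4 and Txnrd3 lie at the top, and 7 genes (Txndc2, Txndc8, Prdx4, Sod1, Osgin1, Nfe2l2 and Srxn1) have their oxamate plus octyl-L2HG points clearly to the left of the other 6.

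Nfe2l2 itself was low, at 2.06 ± 0.152 CPM per kilobase in untreated cells, below its inhibitor Keap1 at 16.1 ± 0.633. Several genes that somatic cells rely on were at or near 0 counts. The NRF2 targets Nqo1 (quinone reductase) and Hmox1 (haem oxygenase) reached at most 9 and 5 counts in any library. Txn1, the cytosolic thioredoxin, Txnrd2, the mitochondrial thioredoxin reductase, and Prdx3, the mitochondrial peroxiredoxin, reached at most 5, 7 and 4 counts. The remaining untested genes, Sod3, Gpx1, Gsta4 and the X-linked G6pdx, reached at most 8, 6, 5 and 5 counts, and Gstp1 had 0 counts in all 9 libraries. A count of 0 allows up to 3 counts, at most 0.132 CPM in the smallest library, and for Gstp1 62.3% of the transcript is shared with other genes, so its reads may not have been assigned to it. These 10 genes did not pass the filter on low counts and were not tested.

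With oxamate alone, most of the antioxidant genes did not pass the threshold. Cat, the gene of peroxisomal catalase, rose in this comparison and none fell, of 28 tested. Over all tested genes the same rule called 5.74% higher and 3.84% lower. The median log2 change of the 28 genes was -0.16, beside -0.01 over all tested genes, with 8 above 0 and 20 below. At an unadjusted p under 0.05, limma placed 3 of the 28 higher and 6 lower, where 13.97% and 12.6% of all tested genes lay, and limma-trend gave 1 higher and none lower after adjustment.

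Cat measured 0.617, 0.667 and 0.690 CPM in untreated libraries A to C and 1.27, 1.17 and 1.59 CPM with oxamate, so every oxamate library lay above every untreated one. The log2 change was 1.02 ± 0.21 (SE), with a limma adjusted p of 0.0148. This is a low gene, with 18 to 58 counts a library, and the adjusted p rose to between 0.0560 and 0.0739 when any untreated library or oxamate library C was left out.

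Same-letter untreated and oxamate libraries deviated alike (correlations of 0.397, 0.399 and 0.293 across genes). No label says what the letters mark, so pairing by letter is an assumption taken from these data. With the letter as a block 3 of the 28 genes rose and 4 fell, where 12.1% of all tested genes were called higher and 9.99% lower. Txnrd1, which encodes cytosolic thioredoxin reductase, and Gclm, the regulatory subunit of glutamate-cysteine ligase, joined Cat among the rises. Txnrd1 measured 48.2, 53.0 and 51.6 CPM untreated and 56.6, 66.5 and 64.7 CPM with oxamate, a log2 change of 0.30 ± 0.10, with a limma adjusted p of 0.0796 and of 0.0118 in the blocked fit. Gclm measured 36.1, 37.3 and 36.2 CPM untreated and 40.8, 44.2 and 45.4 CPM with oxamate, with adjusted p-values of 0.0817 and, blocked, 0.0308. The groups do not overlap for either gene.

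The 4 falls of the blocked fit were Txn2, Prdx5, Prdx6 and Gpx4, enzymes and a carrier of peroxide removal. Their log2 changes without the block were -0.24, -0.37, -0.32 and -0.26, with limma adjusted p-values of 0.0853, 0.0747, 0.141 and 0.0992. In the blocked fit the adjusted p-values were 0.0286, 0.0146, 0.0305 and 0.0173. With length and GC trends removed as well as the block, Cat and Txnrd1 were called higher and Prdx5 and Me1 lower, so that the calls of Gclm, Txn2, Prdx6 and Gpx4 were lost. Gpx4 measured 397.6, 377 and 394 CPM in untreated libraries and 358, 313 and 304 CPM with oxamate, so the groups were apart. Prdx5, a peroxiredoxin of mitochondria and peroxisomes, measured 109 CPM in both untreated A and B and 105 in C, against 98.1, 80.5 and 73.1 CPM with oxamate.

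Sums of spermatid markers were also lower on average in oxamate libraries, with the groups apart for the elongating markers only. The summed elongating spermatid markers measured 1407, 1209.8 and 1368 CPM untreated against 1109, 932 and 1146 CPM with oxamate, with no overlap, although none of the 12 was called by limma and 2 were lower at an unadjusted p under 0.05. Of the 10 round spermatid markers 1 fell, with overlapping sums of 777, 678 and 677 CPM against 703, 595 and 619 CPM. Over all tested genes limma called 3.84% lower, and 12.6% were lower at an unadjusted p under 0.05. Single markers differed in direction. Spaca1 measured 61.6, 55.4 and 56.9 CPM untreated and 64.5, 62.7 and 72.7 CPM with oxamate. Actl9 measured 109.9, 95.0 and 97.0 CPM untreated and 84.4, 70.1 and 64.9 CPM with oxamate. The part of the spermatid markers in the changes under oxamate was not tested.

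In the authors' deposited table, where 37 of the genes had an adjusted p-value, Txnrd1 (0.0389) and Cat (0.0429) were higher under oxamate, and Prdx5 (0.0120), Prdx6 (0.0498) and Gpx4 (0.0418) lower. Of all 26033 genes with a value in the authors' deposited table, 5.29% were higher and 3.7% lower. Untreated and oxamate libraries did not overlap for 3 of the 28 genes in the higher direction and 9 in the lower, against 17.3% and 16.7% of all tested genes. Nfe2l2 and Keap1 overlapped between these groups, with log2 changes of -0.08 ± 0.22 and 0.01 ± 0.08 and limma adjusted p-values of 0.850 and 0.960.

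**Figure D2:**
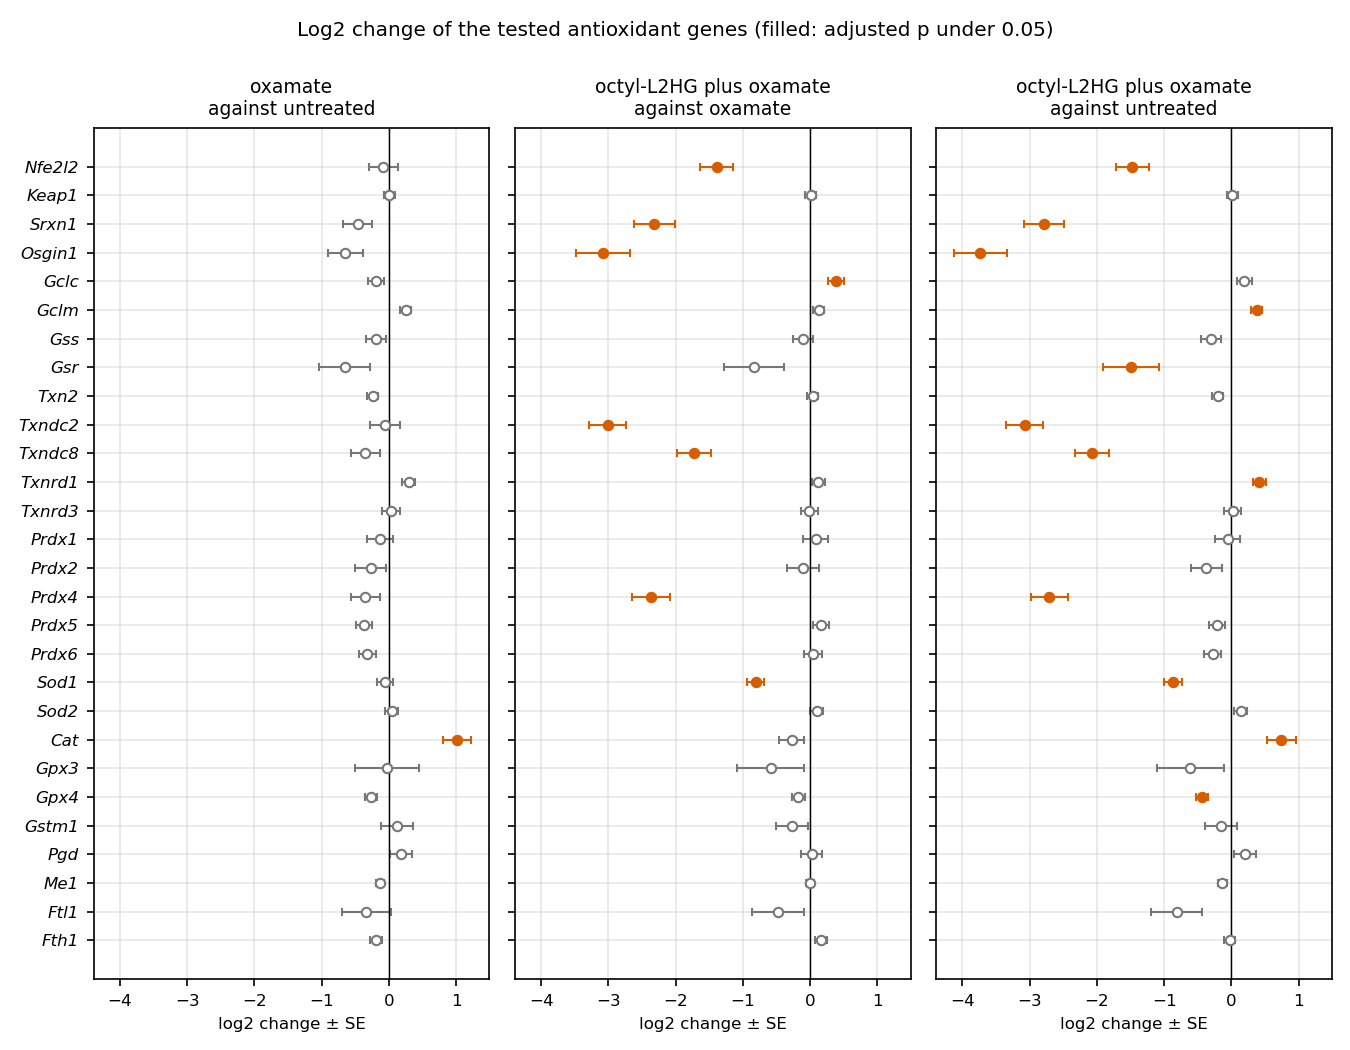
Log2 change with its SE (horizontal, same scale in each panel) of the 28 tested antioxidant genes in the 3 comparisons, 3 libraries a group; filled points passed an adjusted p of 0.05 and open points did not. Oxamate against untreated has 1 filled point, Cat, and the comparisons with octyl-L2HG have filled points on the left that reach below -3 for Osgin1 and Txndc2.

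Adding octyl-L2HG to oxamate lowered 7 of the 28 genes and raised 1, against 15.4% of all tested genes lower and 4.11% higher. The genes that fell were Nfe2l2 itself, the NRF2 targets Srxn1 and Osgin1, the spermatid thioredoxins Txndc2 and Txndc8, the peroxiredoxin gene Prdx4 and the cytosolic superoxide dismutase gene Sod1. The gene that rose was Gclc, the catalytic subunit of the first enzyme of glutathione synthesis. The median log2 change of the 28 genes was -0.10, beside 0.07 over all tested genes, with 11 above 0 and 17 below. The 7 falls passed the threshold in each of 19 alternative fits, and the rise of Gclc did not.

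Promoter sequence is shown for called genes whose RefSeq promoter window holds the core of an antioxidant response element, so that the letters can be read beside the changes. The motif searched was TGACNNNGC on both strands, in windows of 250 bases before to 50 after each annotated start (GRCm38.p6); 32 of the 38 genes had a window and 10 of those held a match. A match was present in 12.4% of all 32851 windows of that length, and in at least 1 window of 3781 of the 27025 genes; some genes have several windows. Among the 7 genes that fell, Nfe2l2, Srxn1, Txndc2 and Sod1 held a match; among the genes that rose in any comparison, Gclm and Txnrd1 did. The motif TGACGTCA, a cyclic AMP response element that does not contain the searched core, was in 1.79% of windows, in 549 of the 27025 genes and in 0 of the 32. Each stretch below runs 5′ to 3′ along the gene's strand with the match in capitals, which reads as the reverse complement of the motif in Srxn1, Sod1, Gclm and Txnrd1, where the match lies on the other strand.
Nfe2l2 (chr2:75704885-75704913, minus strand): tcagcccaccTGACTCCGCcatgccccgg
Srxn1 (chr2:152105542-152105570, plus strand): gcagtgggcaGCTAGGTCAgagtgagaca
Txndc2 (chr17:65639941-65639969, minus strand): ctttgaacctTGACCTAGCctagctgtgt
Sod1 (chr16:90220696-90220724, plus strand): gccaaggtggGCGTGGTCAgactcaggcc
Gclm (chr3:122245413-122245441, plus strand): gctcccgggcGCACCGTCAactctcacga
Txnrd1 (chr10:82859104-82859132, plus strand): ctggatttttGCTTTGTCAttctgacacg
Positions are counted from the annotated start of the window that held the match, with negative positions before it. The first matching base was at -240 in Nfe2l2, -203 in Txndc2, -56 in Sod1, -134 in Gclm and -92 in Txnrd1, and at base 29 of the transcript in Srxn1. For Txndc2 and Txnrd1 that start is an alternative one inside the gene, and the window at the 5′ end of each of these genes held no match. A match is a description of these letters and no evidence of binding, and genes with a match lay on both sides of 0. Other forms of the element were not searched, so a window without a match, or one with a match, may hold a further form.

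Nfe2l2 (chromosome 2, 75675513 to 75704641, GRCm38) measured 5.49, 4.74 and 5.07 CPM untreated, 5.26, 4.61 and 4.63 CPM with oxamate, and 1.26, 1.67 and 2.97 CPM with octyl-L2HG added. All 3 octyl-L2HG libraries lay below all 6 others. Against oxamate the log2 change was -1.39 ± 0.25 with a limma adjusted p of 0.00186, a fold of 2.62. Keap1 measured between 56.2 and 63.4 CPM in all 9 libraries, with a log2 change of 0.01 ± 0.08 in the same comparison.

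Of the 4 genes grouped as inducible NRF2 targets (Nqo1, Hmox1, Srxn1 and Osgin1), Srxn1 and Osgin1 had enough counts to be tested, and both fell. Other tested genes that NRF2 is known to regulate were not called lower here. Gclc rose, and Gclm, Txnrd1, Me1, Gsr and Ftl1 were not called. Fitted log2 changes were 0.13 for Gclm, 0.12 for Txnrd1 and -0.003 for Me1. For Gsr and Ftl1, both on low counts, they were -0.83 ± 0.44 and -0.48 ± 0.39. Srxn1 encodes sulfiredoxin, which restores overoxidised peroxiredoxins, and measured 4.29, 2.94 and 2.96 CPM with oxamate against 0.568, 0.396 and 1.12 CPM with octyl-L2HG added. Its log2 change was -2.32 ± 0.30, with a limma adjusted p of 0.000235. Osgin1, an oxidative stress-induced growth inhibitor, measured 7.38, 5.28 and 6.19 CPM with oxamate against 0.546, 0.308 and 1.75 CPM, a log2 change of -3.09 ± 0.40 and a limma adjusted p of 0.000227. Without octyl-L2HG library C, the Osgin1 change was -3.78 in the same fit. Neither gene's groups overlapped, and in untreated cells both were higher still, Srxn1 at 4.94, 4.37 and 4.59 CPM and Osgin1 at 11.2, 8.55 and 9.60 CPM.

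Of the thioredoxin genes, both spermatid forms fell. Txndc2 (chromosome 17, 65637507 to 65642168) measured 93.7, 91.9 and 92.7 CPM untreated, 77.9, 84.3 and 107 CPM with oxamate, and 7.21, 8.98 and 20.6 CPM with octyl-L2HG added. The log2 change against oxamate was -3.01 ± 0.28, a fold of 8.04, with a limma adjusted p of 5.11e-05. Txndc8 measured 23.0, 17.3 and 17.5 CPM untreated, 18.2, 12.4 and 15.04 CPM with oxamate, and 3.51, 3.74 and 7.13 CPM with octyl-L2HG added, a log2 change of -1.72 ± 0.25 and a limma adjusted p of 0.000471. For both genes the octyl-L2HG libraries lay below all others, with C the highest of the 3. The other thioredoxin genes tested, Txn2, Txnrd1 and Txnrd3, had log2 changes of 0.04, 0.12 and -0.01 in this comparison and were not called. Txnrd3 measured 793, 931 and 852 CPM untreated, 760.3, 952 and 922 CPM with oxamate, and 775, 1079 and 788 CPM with octyl-L2HG added, with overlapping groups and library B the highest in each.

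Of the 5 peroxiredoxin genes tested, Prdx4 alone passed the threshold in this comparison. Prdx4, on the X chromosome, encodes the peroxiredoxin of the endoplasmic reticulum and secretory pathway. It measured 18.7, 16.1 and 14.5 CPM untreated, 15.2, 11.1 and 12.6 CPM with oxamate, and 2.29, 1.41 and 4.26 CPM with octyl-L2HG added. The log2 change against oxamate was -2.36 ± 0.28, a fold of 5.13, with a limma adjusted p of 0.000147. Prdx1, Prdx2, Prdx5 and Prdx6 had log2 changes between -0.10 and 0.16 and overlapping groups.

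Sod1 had the smallest fitted change of the 7 falls. It measured 26.9, 23.3 and 26.7 CPM untreated, 26.5, 21.8 and 25.7 CPM with oxamate, and 12.6, 13.6 and 16.3 CPM with octyl-L2HG added. The log2 change against oxamate was -0.81 ± 0.13, a fold of 1.75, with a limma adjusted p of 0.00081. Sod2, the mitochondrial superoxide dismutase gene, measured between 71.7 and 96.8 CPM over all 9 libraries and was not called, at a log2 change of 0.10 ± 0.10.

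Gclc measured 59.9, 59.3 and 68.6 CPM untreated, 45.6, 59.8 and 60.3 CPM with oxamate, and 74.4, 71.5 and 68.0 CPM with octyl-L2HG added. The octyl-L2HG and oxamate libraries were apart, with oxamate A the lowest, and the log2 change was 0.38 ± 0.11 with a limma adjusted p of 0.0357. The call was lost when any untreated library, oxamate A, octyl-L2HG A or octyl-L2HG B was left out; without oxamate A the change was 0.25, with an adjusted p of 0.117. Over all alternatives the adjusted p ranged from 0.0189 to 0.135.

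**Figure D3:**
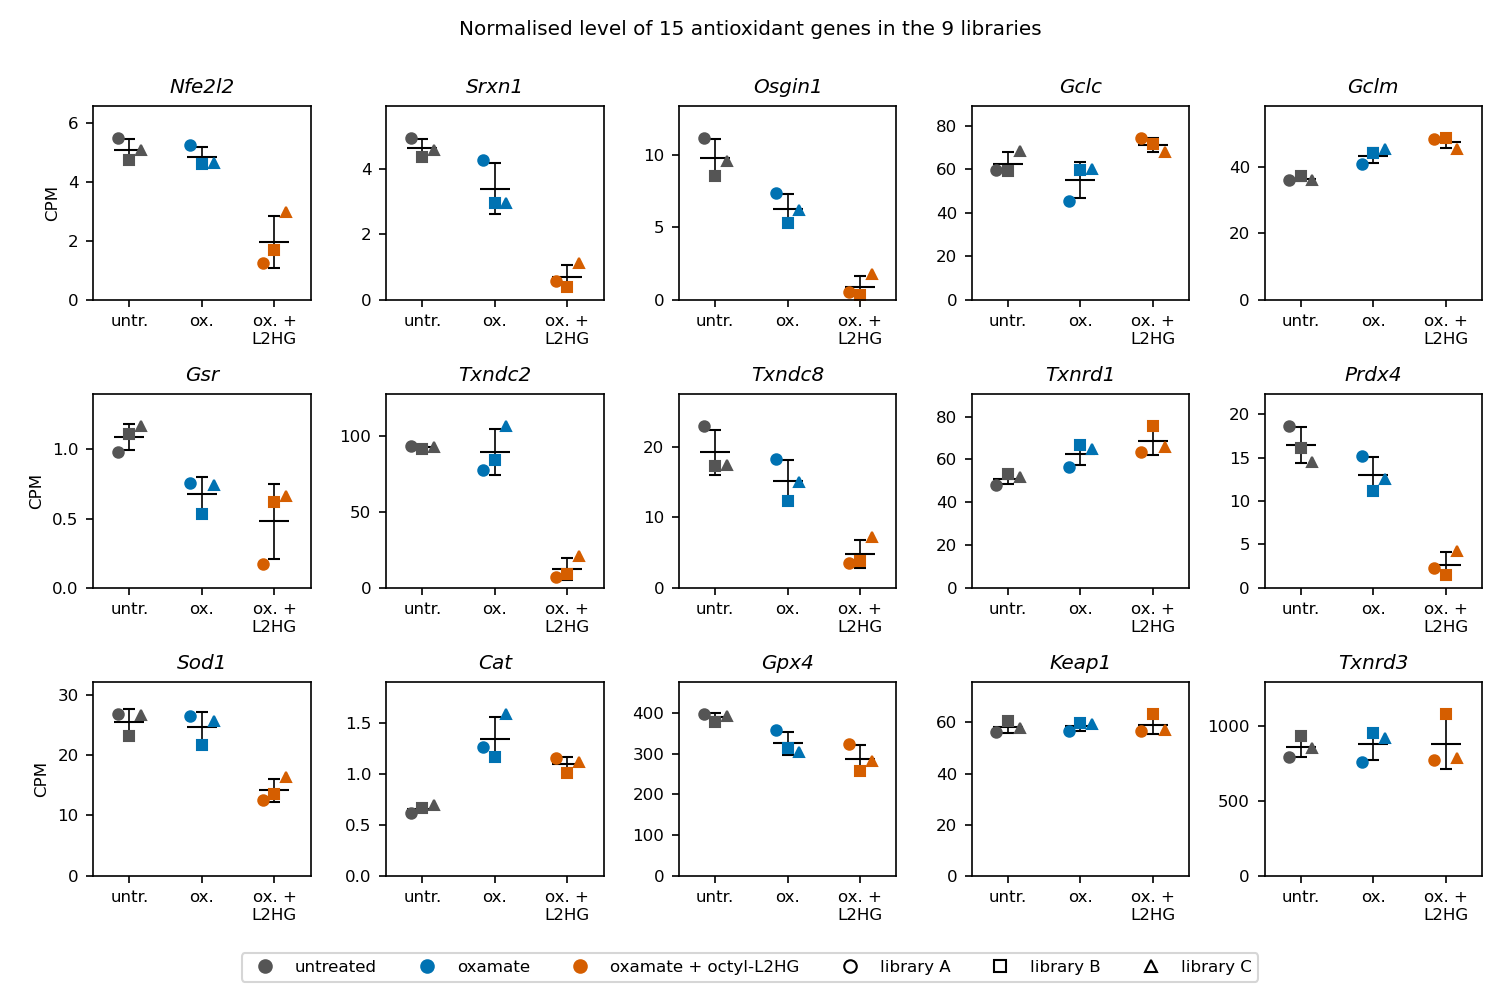
CPM in each of the 9 libraries (vertical, from 0) for the 13 antioxidant genes called in at least 1 comparison and for Keap1 and Txnrd3; points are libraries with a symbol per letter, bars are the mean ± SD of 3. The octyl-L2HG points of Nfe2l2, Srxn1, Osgin1, Txndc2, Txndc8, Prdx4 and Sod1 lie below the other 6, whereas Keap1 stays between 56.2 and 63.4 CPM.

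Markers of spermatids moved with the same libraries. Of the 10 round spermatid markers, all 10 fell with octyl-L2HG against oxamate, and of the 12 elongating spermatid markers all 12 fell. The summed round spermatid markers measured 296, 297 and 380.1 CPM and the summed elongating spermatid markers 147, 162 and 373 CPM, below every oxamate library. Spermatocyte markers, at 4981, 5356 and 4826 CPM with octyl-L2HG added, overlapped the oxamate libraries, with 2 of 10 called higher and none lower by limma.

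Library C was the highest octyl-L2HG library for all 7 fallen genes and for both spermatid sums. As a share of the untreated mean, elongating spermatid markers stood at 11.1, 12.2 and 28.1% in octyl-L2HG libraries A to C. Txndc2 stood at 7.77, 9.68 and 22.2%, Prdx4 at 13.9, 8.56 and 25.9%, Srxn1 at 12.3, 8.55 and 24.1%, and Osgin1 at 5.59, 3.15 and 17.9%. Txndc8 stood at 18.2, 19.4 and 37.1%, Nfe2l2 at 24.7, 32.8 and 58.2%, and Sod1 at 49.2, 52.9 and 63.8%. In these bulk samples fewer spermatids and less RNA per cell cannot be told apart, and the part of the spermatid markers in the falls was not tested.

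The 8 spermatogonium markers summed to between 44.4 and 67.3 CPM, and of 5 tested 1 rose and 2 fell for both compounds against untreated. Markers of somatic cells were low. Leydig cell markers summed to between 1.91 and 3.96 CPM, macrophage markers to between 2.71 and 9.02 CPM, and markers of peritubular or vascular cells to between 2.94 and 7.21 CPM. The macrophage sum was highest in octyl-L2HG library B, where the single gene Csf1r made 8.01 of the 9.02 CPM. The 1 Leydig cell marker with enough counts to be tested, Star, fell with oxamate against untreated, and so did 1 of the 10 spermatocyte markers. The Leydig sums were 3.45 to 3.96 CPM untreated and 1.91 to 2.52 CPM with oxamate, without overlap. Star made most of them, at 3.18, 3.15 and 3.63 CPM untreated and 1.40, 2.13 and 2.19 CPM with oxamate. Cyp11a1 went the other way, from 0.046, 0 and 0.060 CPM to 0.135, 0.106 and 0.110 CPM. The 4 haemoglobin genes had 0 counts in all 9 libraries. Of the macrophage markers 1 of 3 tested fell with octyl-L2HG against oxamate, and of the peritubular or vascular markers 2 of 4, and their part in the results was not tested.

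**Figure D4:**
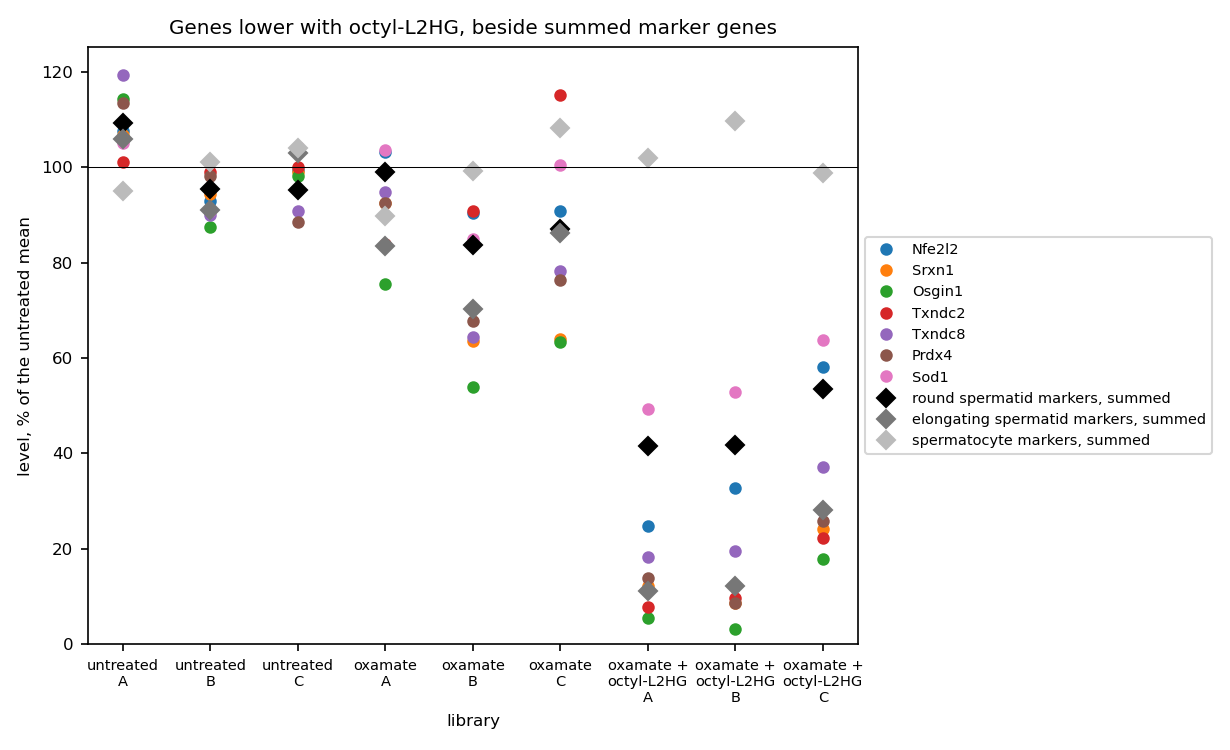
Level of each of the 7 antioxidant genes that fell with octyl-L2HG, and of summed marker genes (diamonds), as a percentage of the untreated mean in each of the 9 libraries. In the oxamate plus octyl-L2HG libraries the 7 genes and both spermatid sums are low with library C the highest, while the summed spermatocyte markers stay between 89.8 and 110% of the untreated mean over all libraries.

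Against untreated cells, oxamate with octyl-L2HG lowered 9 of the 28 genes and raised 3, where 21.1% of all tested genes were lower and 17.2% higher. The median log2 change was -0.24, beside 0.01 over all tested genes. This comparison uses the same libraries as the other comparisons and is not independent of them. The 9 falls comprised the 7 genes above, Gsr and Gpx4, and the rises were Gclm, Txnrd1 and Cat.

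For the 7 genes, the log2 changes against untreated were -1.47 for Nfe2l2, -2.78 for Srxn1, -3.73 for Osgin1, -3.07 for Txndc2, -2.07 for Txndc8, -2.71 for Prdx4 and -0.87 for Sod1. Without octyl-L2HG library C the Osgin1 change was -4.42. The corresponding changes from untreated to oxamate alone were -0.08, -0.47, -0.65, -0.06, -0.35, -0.35 and -0.06, none of them past the threshold.

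Gsr encodes glutathione reductase, which returns oxidised glutathione to its reduced form. It measured 0.983, 1.11 and 1.17 CPM untreated, 0.755, 0.532 and 0.740 CPM with oxamate, and 0.168, 0.616 and 0.660 CPM with octyl-L2HG added. The log2 change against untreated was -1.49 ± 0.41, with a limma adjusted p of 0.0140, on 8 to 43 counts a library. Octyl-L2HG library A was the lowest by far; without it the change was -0.73, with an adjusted p of 0.0548.

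Gpx4 measured 322, 258 and 283 CPM with octyl-L2HG added, below the untreated 377 to 397.6 CPM. The log2 change was -0.44 ± 0.09, a fold of 1.36, with a limma adjusted p of 0.00336. With trends on transcript length and GC content removed the change was 0.03 with an adjusted p of 0.747, so the call depends on that correction.

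Gclm measured 48.5, 48.8 and 45.6 CPM with octyl-L2HG added, above the untreated 36.1 to 37.3 CPM. The log2 change was 0.38 ± 0.08, with a limma adjusted p of 0.00352, which rose to 0.0771 with length and GC trends removed. Txnrd1 measured 63.5, 75.6 and 65.9 CPM against 48.2 to 53.0 CPM, a log2 change of 0.42 ± 0.10 with a limma adjusted p of 0.00561. Cat measured 1.16, 1.01 and 1.12 CPM against 0.617 to 0.690 CPM, a log2 change of 0.74 ± 0.21 with a limma adjusted p of 0.0173. Without any untreated library or octyl-L2HG A the Cat adjusted p lay between 0.052 and 0.0769. In the authors' deposited comparison (DESeq2) Cat was not under 0.05, at an adjusted p of 0.117. Gclm and Txnrd1 were, at 0.00138 and 0.000153. All 3 genes were also above the untreated range in every oxamate library.

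The other 15 tested genes passed the threshold in none of the 3 comparisons in the fit without a block. In the authors' deposited comparison (DESeq2) of both compounds against untreated, Prdx6 was lower, with an adjusted p of 0.0461. Fitted log2 changes between octyl-L2HG plus oxamate and oxamate were -0.10 for Gss, glutathione synthetase, and 0.04 for Prdx6. In the genes that supply NADPH they were 0.02 for Pgd and 0.00 for Me1, and the Me1 SE was 0.06. Me1 measured between 304 and 347 CPM over all 9 libraries. The ferritin genes Fth1 and Ftl1 had changes of 0.16 ± 0.08 and -0.48 ± 0.39, and for Ftl1 90.6% of the transcript is shared with other genes, so that its 7 to 39 counts a library are uncertain. Gpx3, the secreted glutathione peroxidase gene, and the glutathione transferase gene Gstm1 had changes of -0.59 ± 0.50 and -0.27 ± 0.24. G6pdx, untested, measured 0.108, 0.142 and 0.110 CPM with oxamate and 0.063, 0 and 0 CPM with octyl-L2HG added, on at most 5 counts; in a fit with no filter on low counts it was called lower with octyl-L2HG in both comparisons.

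The letter of a library carried over between groups for some genes. The same letter was highest in all 3 groups for 11 of the 28 tested genes, and in 6 of these, Prdx1, Prdx2, Prdx5, Prdx6, Gpx4 and Gstm1, it was A. The share of all tested genes with this order was not taken, so these counts have no background beside them. Prdx1 measured 25.6, 21.4 and 22.1 CPM untreated, 27.9, 17.3 and 19.1 CPM with oxamate, and 27.0, 17.5 and 22.0 CPM with octyl-L2HG added. What the letters mark is not stated in the labels.

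Of 110 other genes of these pathways, 81 were tested. With oxamate against untreated, 5 rose and 6 fell, where 5.74% of all tested genes were higher and 3.84% lower, and in the blocked fit 14 rose and 14 fell, where 12.1% and 9.99% of all tested genes did. The rise with the smallest adjusted p was that of Sesn1, a sestrin that responds to stress, from 5.13 ± 0.40 to 8.78 ± 0.10 CPM (SD, n = 3; limma adjusted p 0.00816), a log2 change of 0.77. The peroxidase gene Gpx8 had a larger fitted rise, 1.69 on the log2 scale, at a mean of 0.501 CPM with oxamate. The membrane thioredoxin genes Tmx1 and Tmx3 and Nadk2, the mitochondrial NAD kinase, rose by 0.39, 0.48 and 0.43. Txnip, the thioredoxin-binding protein, fell from 73.0 ± 6.22 to 46.8 ± 0.88 CPM, with a limma adjusted p of 0.00306. Selenof, a selenoprotein of the endoplasmic reticulum, fell from 166 ± 4.31 to 112 ± 8.78 CPM, with a limma adjusted p of 0.00318. Aox1, Txndc17 and Ggt1 also fell, by 0.83, 0.56 and 0.76 on the log2 scale.

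With octyl-L2HG against oxamate, 3 of the 81 rose and 7 fell, where 4.11% of all tested genes were higher and 15.4% lower. Tmx3 rose from 12.2 ± 1.55 to 16.9 ± 1.498 CPM, and Txnip from 46.8 ± 0.88 to 57.9 ± 3.54 CPM, with limma adjusted p-values of 0.0152 and 0.0312. The third rise was Secisbp2, whose product inserts selenocysteine, at a log2 change of 0.26. G6pd2, a retrogene copy of the glucose-6-phosphate dehydrogenase gene expressed in male germ cells, fell from 15.1 ± 2.52 to 3.24 ± 1.65 CPM, a fold of 5.05 with a limma adjusted p of 0.00012. Glrx2, a mitochondrial glutaredoxin gene, fell from 13.4 ± 0.13 to 7.75 ± 0.75 CPM. Gpx6, Mgst2 and Gstm4 fell by 1.97, 2.99 and 1.41 on the log2 scale, at levels of at most 3.06 CPM in the oxamate mean.

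Of the 11 tested genes on the list of other NRF2 targets, none was called in either direction by limma with octyl-L2HG against oxamate. Over all tested genes the same rule called 4.11% higher and 15.4% lower. The median log2 change of the 11 genes was 0.13, beside 0.07 over all tested genes. At an unadjusted p under 0.05, limma placed 1 of the 11 higher and 0 lower, where 12.1% and 19.0% of all tested genes lay. With so few genes, these counts do not set the list apart from all tested genes. Of the 9 tested NRF2 partners and regulators, 1 fell. That gene, named after its values were seen, was Bach2, which encodes a repressor of the same basic leucine zipper family as NRF2, at a log2 change of -1.18 ± 0.29 with a limma adjusted p of 0.0140. Against untreated cells, 16 of the 81 pathway genes rose and 18 fell in the group given both compounds, where 17.2% of all tested genes were higher and 21.1% lower. The rises with the smallest adjusted p were Sesn1, Tmx3, Tmx1, Selenot and Nadk2, with log2 changes of 1.11, 0.97, 0.61, 0.61 and 0.59. The falls with the smallest adjusted p were G6pd2, Selenof, Aox1, Gpx6 and Oplah, which encodes 5-oxoprolinase, with log2 changes of -2.40, -0.68, -1.16, -2.41 and -0.78.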

How the data were processed

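Per the labels' protocols, poly-A RNA went into strand-marking libraries (KAPA Stranded mRNA-Seq). Tools and builds in the submitters' processing notes are GRCm38, TopHat2 2.1.1, HTSeq 0.6.0, cutadapt 1.18, bcl2fastq 2.18.0.12 and DESeq2 1.22.2, without settings; the sources used here do not say whether counting used strand. Per the file headers, the table deposited by the authors pairs each library's raw column with a normalized one and adds log2 fold changes with adjusted p-values from the authors' own comparisons. Raw values are counts of reads per gene as the authors deposited them, not normalized: all 442944 were whole numbers. For 6255 of 55471 genes no value is listed, and these were left out. Their missing-value mark keeps the raw columns from being recorded under the unit for counts, so edgeR and DESeq2 were not used here and limma-voom was the planned main test. The 9 normalized columns were not used.

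A gene was tested with 15 or more counts in all and, in 3 or more libraries, 0.288 CPM, which is 10 counts in the median library. Scaling used trimmed means of M values (TMM; 30% of log ratios and 5% of log levels trimmed). Counts were fitted with limma 3.58.1 in R 4.3.3 (voom, offset 0.5, robust empirical Bayes), all 9 libraries in 1 fit without covariates. The procedure was tested on simulated counts of oxamate against untreated, with a library spread set in advance. It recovered 32.3% of 1.5-fold, 73.1% of 2-fold and 93.7% of 4-fold changes, with 4 false calls among 133. A gene that was not called may therefore still have changed by a small fold. Totals of 24849620 to 46671048 counts make counting error small beside library spread except for low genes, and intervals and floors cover counting error only. Libraries within each group all differed beyond sampling noise. Lengths, exons and the share of a transcript's 50-base windows found in other genes came from GENCODE vM21, whose coordinates were the same for 99.4% of matched genes; of the 13 called genes only Gclm shares exon bases with other genes, 3.9% on its strand and 4.7% on the other. Promoter windows are from RefSeq (GRCm38.p6).

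No label says what the letters mark. Same-letter untreated and oxamate libraries correlated at 0.397, 0.399 and 0.293, all over 0.1, so a fit that blocks on the letter stands beside that comparison. The members, lists and alternatives were chosen with earlier results of these data known. Library values are given for every member called in a comparison and for Nfe2l2, Keap1, Txndc2, Txndc8, Txnrd3 and Gpx4; of the other pathway genes, up to 5 with the smallest adjusted p in each direction are named. Alternatives were other scalings and filters, limma-trend, a quality weight per library, length and GC trends removed, the replicate block, only the 6 libraries compared, and leaving out each library.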

Additional observations from a re-analysis of the deposited data

How the results depend on the processing

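The 7 falls with octyl-L2HG against oxamate passed in all 19 alternatives. The other counts of that comparison moved: no gene rose with no filter on low counts, at a filter of at least 1 CPM, with a quality weight per library or with only the 6 libraries compared (0 in each), 3 rose with the replicate block and length and GC trends removed, and 0 to 1 rose when a library was left out. Oxamate against untreated moved most: 3 rose and 7 fell with a quality weight per library, 3 rose and 4 fell with the replicate block, 2 rose (Cat, Txnrd1) and 2 fell (Prdx5, Me1) with the block and trends removed, 2 fell with only the 6 libraries compared, and leaving out a library gave 0 to 3 rises and 0 to 3 falls. Against untreated, oxamate with octyl-L2HG kept 8 to 9 falls and 2 to 3 rises when a library was left out. The share of all tested genes called was taken for the replicate block of oxamate against untreated (12.1% higher, 9.99% lower) and for no other alternative.

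The median log2 change of the tested genes ran from -0.18 to -0.035 with octyl-L2HG against oxamate, from -0.32 to -0.19 for both compounds against untreated, and from -0.20 to -0.12 for oxamate against untreated when a library was left out. For both compounds against untreated it was -0.19 with no filter, -0.13 with length and GC trends removed and -0.12 with the block as well. In that comparison Gpx4 turned from lower to 0.033 with trends removed and 0.035 with the block as well; the cause was not tested.

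Among alternatives for single genes, 811 were the same, meaning the same direction and side of the threshold. An uncalled change that switched sign within its SE of the main fit also counted as the same. Of the others, 21 lost the call, 15 gained it, 2 changed sign after a call and 6 moved around 0. In the comparisons with octyl-L2HG, same-letter correlations for A, B and C were 0.308, 0.387 and 0.0437 against oxamate and 0.171, 0.34 and 0.063 against untreated. With C under 0.1 the letters were not taken to pair these libraries. In the comparisons with octyl-L2HG, the replicate block moved no count of calls among the 28 genes by over 1.5 times. Of the 81 other pathway genes, 13 rose in place of 3 against oxamate and 25 in place of 16 against untreated. The share of all tested genes called with the block in these comparisons was not taken, so these counts have no background beside them. With no filter G6pdx was also called lower, on at most 5 counts. EdgeR and DESeq2 alternatives were not run. Low counts limit Cat, Gsr, Gpx3 and the 10 untested genes.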
